A study of Mus musculus with 14 samples.

Results

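The nuclear factor I genes Nfia, Nfib, Nfic and Nfix and the Krüppel-like factor genes Klf4, Klf6, Klf9, Klf13 and Klf15 were followed in mouse neural stem and progenitor cells (NSPCs) in culture. These 9 genes were taken by symbol out of 53696 genes in the deposited annotation and joined by gene identifier to the count tables. Poly-A RNA was sequenced from cells of strain C57BL/6 in 4 groups. Quiescent NSPCs received bone morphogenetic protein 4 (BMP4; 4 libraries), and proliferating NSPCs grew in the mitogens FGF and EGF (4 libraries). Yme1l KO NSPCs received a Cre-GFP adeno-associated virus (3 libraries) and GFP control NSPCs a GFP adeno-associated virus (3 libraries), both in FGF and EGF. The labels name a wild-type mouse for all 4 groups, the KO group included, and name no floxed allele. They state neither the age of the mice nor whether replicates came from separate mice or cultures, so each p-value reflects only how far these libraries scatter, which could be technical.

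Nuclear factor I (NFI) proteins bind the letters TTGGC, as a palindrome or alone, and are known for driving astrocyte genes in the developing brain. In cultured mouse neural stem cells, NFIX is known as a factor that occupies enhancers of BMP4-induced quiescence. Krüppel-like factors (KLFs) carry zinc fingers at the carboxyl end that bind GC boxes and CACCC boxes, sites which Sp proteins also bind. KLF9 and KLF15 are induced by glucocorticoids in several tissues, and KLF4 and KLF6 are known for restraining the cell cycle in many cell types.

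The promoters of the 3 Klf genes on which the results turn are given here as the 250 bases before the transcription start. They are RefSeq sequences of build GRCm38.p6, 5′ to 3′ on the strand of the gene, with capitals for GC boxes (GGGCGG or CCGCCC) and CACCC boxes (CACCC or GGGTG).
Klf9: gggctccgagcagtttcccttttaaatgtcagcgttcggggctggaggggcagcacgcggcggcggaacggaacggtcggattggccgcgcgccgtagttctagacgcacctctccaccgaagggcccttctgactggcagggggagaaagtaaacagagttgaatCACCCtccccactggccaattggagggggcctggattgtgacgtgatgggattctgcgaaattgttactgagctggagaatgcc
Klf13: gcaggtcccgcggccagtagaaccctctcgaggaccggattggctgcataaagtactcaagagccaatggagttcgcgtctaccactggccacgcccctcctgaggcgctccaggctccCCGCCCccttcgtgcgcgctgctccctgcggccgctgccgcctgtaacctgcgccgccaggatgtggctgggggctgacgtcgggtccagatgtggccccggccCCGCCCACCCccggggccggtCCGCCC
Klf15: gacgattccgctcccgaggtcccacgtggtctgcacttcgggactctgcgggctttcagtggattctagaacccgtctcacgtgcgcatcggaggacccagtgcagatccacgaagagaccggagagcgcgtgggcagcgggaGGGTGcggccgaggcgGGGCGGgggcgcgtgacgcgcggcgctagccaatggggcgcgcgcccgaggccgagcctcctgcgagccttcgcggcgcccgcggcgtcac
These windows lie at chr19:23140976-23141225 on the plus strand (Klf9), chr7:63938916-63939165 on the minus strand (Klf13) and chr6:90462326-90462575 on the plus strand (Klf15). The Klf9 window held no GC box and 1 CACCC box. The Klf13 window held 3 GC boxes and 1 CACCC box, with a CCGCCC and the CACCC sharing a base, and the Klf15 window held 1 of each. Among 32851 mouse promoters of the same length, 32.7% held a GC box and 52.0% a CACCC box on either strand. The NFI core TTGGC (or GCCAA) matched at 2 places in Klf9, 2 in Klf13 and 1 in Klf15, and 41.5% of all promoters held it. The E box CACGTG, the letters bound by clock proteins, matched at 2 places in Klf15 and is present in 6.02% of promoters. It also matched at 1 place each in the Klf4 and Klf6 windows. The BMP-type SMAD element GGCGCC matched at 1 place in Klf15 and in 1 Nfix window, and 9.59% of promoters held it. No promoter window of the members held the NFI palindrome (the core on both sides of 5 free bases) or the palindromic glucocorticoid response element. Only 0.0365% and 0.00913% of all promoters held them, so their absence from a few windows says little. Promoter windows were found for 8 of the 9 members, 11 windows in all since Nfix had 4, and Nfib was not analysed for motifs. A match describes the letters only.

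The knockout was checked first. Yme1l1, which encodes the inner mitochondrial membrane protease YME1L, had 25.7, 25.6 and 22.9 CPM (counts scaled to a common library size by TMM) in Yme1l KO libraries, against 135, 124 and 121 CPM in GFP control libraries. The log2 fold change of -2.36 had an SE of 0.07 (adjusted p = 5.89e-11). Library totals lay between 6475092 and 8797741 counts in quiescent, 8331995 and 8992697 in proliferating, 9053122 and 9490735 in Yme1l KO and 9226070 and 10320727 in GFP control libraries. Quiescent library 2 stood apart from the other quiescent libraries. Genes with a GC content under 45% took 6.63% of its counts, against 4.80% to 4.84% in the other quiescent and 4.59% to 5.32% in the proliferating libraries. In the KO and GFP control libraries these genes took 24.6% to 25.5%. Yme1l KO library 3 lay farther from the controls than the other KO libraries on the first principal component. Among NSPC markers, Sox2 averaged 84.0, 94.6, 121 and 123 TPM in quiescent, proliferating, Yme1l KO and GFP control libraries, while Prom1 averaged 0.170, 0.0780, 0.0276 and 0.151 TPM.

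Within the table of quiescent and proliferating cells, the 9 genes did not move together. Klf9 and Nfia were higher in quiescent NSPCs, Klf13, Klf15 and Nfic were lower, and Nfib, Nfix, Klf4 and Klf6 did not pass the test (edgeR quasi-likelihood test, adjusted p under 0.05 over 12245 genes). That is 5 of 9 members called, where 65.4% of all tested genes were called (29.9% higher and 35.5% lower). The 5 called members were also those whose groups did not overlap, as in 59.7% of all genes. The median log2 fold change was 0.01 over the members and -0.01 over all tested genes. The name "quiescence factors" therefore did not describe the direction of these transcripts as a group, and they are called here by their gene names.

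**Figure D1:**
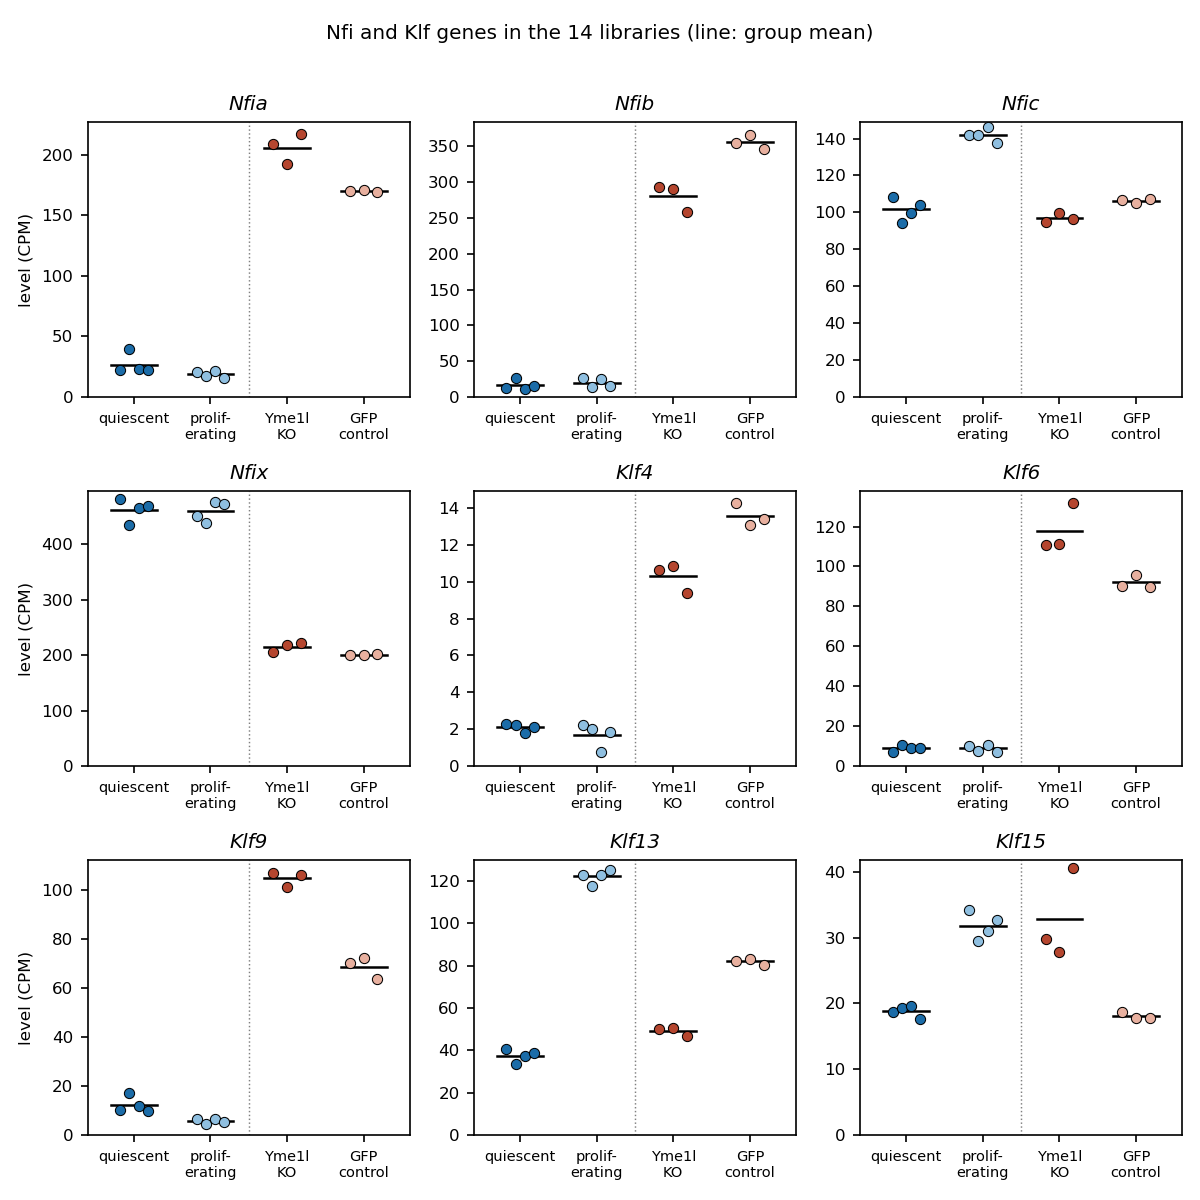
Level of each member in CPM (vertical axes from 0, a scale for each gene) in quiescent, proliferating, Yme1l KO and GFP control libraries; points are libraries, lines are group means, and the dotted line parts the 2 tables. Klf13 lies between 33.5 and 40.4 CPM in quiescent libraries, under all proliferating ones, and Klf15 is lower in quiescent but higher in Yme1l KO libraries than in the group beside each.

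Nfix (ENSMUSG00000001911, chromosome 8, 85426505 to 85526973, minus strand; coordinates of genes are from the deposited annotation, build GRCm39) was the most abundant member. It had 482, 435, 465 and 469 CPM in quiescent libraries, against 450, 439, 477 and 474 CPM in proliferating libraries. The groups overlapped throughout. The log2 fold change of Nfix was 0.01 with a 95% interval of -0.08 to 0.10 (adjusted p = 0.873), so that any difference was small beside the 3.27-fold difference of Klf13. This value moved with the library left out and with the setting. It was 0.12 without quiescent library 2 (adjusted p = 0.0087), 0.16 after removal of each library's trend with GC content (adjusted p = 0.000256) and -0.13 with library size alone (adjusted p = 0.00648).

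Nfic (ENSMUSG00000055053, chromosome 10, 81232020 to 81291469, minus strand) is a member best known from tooth root development. It had 108, 94.5, 99.4 and 104 CPM in quiescent libraries, against 142, 142, 146 and 137 CPM in proliferating libraries. Every quiescent library lay below every proliferating library. Its log2 fold change was -0.48 (SE 0.05, adjusted p = 7.42e-07), and it was -0.32 with the GC trend removed.

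Nfia (ENSMUSG00000028565, chromosome 4, 97660971 to 98007111, plus strand), an initiator of astrocyte formation, had 22.5, 39.2, 23.3 and 22.0 CPM in quiescent libraries, against 20.5, 17.3, 21.8 and 15.6 CPM in proliferating libraries. The quiescent values other than that of library 2 lay close above the highest proliferating value, and library 2 lay far above. Nfia was called with a log2 fold change of 0.52 (SE 0.20, adjusted p = 0.0464), which was 0.35 without quiescent library 2 (adjusted p = 0.0139). The call was lost without proliferating library 1, 2 or 5 (adjusted p between 0.0631 and 0.108), and with the GC trend removed and quiescent library 2 left out (0.18, adjusted p = 0.147). On the TPM scale, which depends on how reads were split between transcripts, the groups overlapped, with 5.15 to 17.5 TPM in quiescent and 3.69 to 8.57 TPM in proliferating libraries.

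Nfib (ENSMUSG00000008575, chromosome 4, 82208410 to 82623987, minus strand), which acts with Nfia in glial development, had 12.4, 26.5, 10.6 and 15.5 CPM in quiescent libraries, against 26.4, 13.6, 24.7 and 15.0 CPM in proliferating libraries. Both groups held high and low libraries. Nfib was not called, at -0.27 on the log2 scale (95% interval -0.97 to 0.43, adjusted p = 0.529). The value ran between -0.07 without quiescent library 3 and -0.54 without quiescent library 2, uncalled in each case. With the GC trend removed it was -0.57 (adjusted p = 0.0113). Nfib rested on 65 to 250 counts per library here.

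Klf13 (ENSMUSG00000052040, chromosome 7, 63536099 to 63588663, minus strand), a KLF known from T cell and heart gene control, showed the widest gap of the members. It had 40.4, 33.5, 37.1 and 38.5 CPM in quiescent libraries, against 123, 117, 123 and 125 CPM in proliferating libraries. The log2 fold change of -1.71 (SE 0.06, adjusted p = 1.48e-12) is a 3.27-fold lower level in quiescent cells, and 91.7% of tested genes changed less. Over the alternatives tried it lay between -1.85 and -1.53.

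Klf9 (ENSMUSG00000033863, chromosome 19, 23118590 to 23145498, plus strand), a thyroid hormone and glucocorticoid-induced repressor in neurons, moved the other way. It had 10.2, 17.3, 11.7 and 9.63 CPM in quiescent libraries, against 6.64, 4.42, 6.73 and 5.39 CPM in proliferating libraries. All quiescent values lay above all proliferating values, with quiescent library 2 the highest. Klf9 was 2.12-fold higher in quiescent cells (log2 fold change 1.08, SE 0.21, adjusted p = 0.000276), on 40 to 148 counts per library. It was 0.94 without quiescent library 2 and 1.05 with the GC trend removed.

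Klf15 (ENSMUSG00000030087, chromosome 6, 90439558 to 90452220, plus strand) controls amino acid breakdown and fasting responses in liver, muscle and heart. It had 18.8, 19.3, 19.5 and 17.6 CPM in quiescent libraries, against 34.2, 29.5, 31.0 and 32.6 CPM in proliferating libraries. The quiescent libraries lay close together and below all others of the table. On the log2 scale the change was -0.76 (SE 0.09, adjusted p = 1.45e-06).

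Klf6 (ENSMUSG00000000078, chromosome 13, 5911481 to 5920393, plus strand), an injury-induced KLF, had 7.11, 10.6, 9.11 and 8.93 CPM in quiescent libraries, against 9.91, 7.62, 10.5 and 7.12 CPM in proliferating libraries. Its groups overlapped and the log2 fold change was 0.03 (95% interval -0.32 to 0.38, adjusted p = 0.887). Klf4 (ENSMUSG00000003032, chromosome 4, 55527143 to 55532466, minus strand), a pluripotency factor, rested on 7 to 21 counts per library. It had 2.26, 2.22, 1.79 and 2.09 CPM in quiescent libraries, against 2.21, 1.99, 0.759 and 1.84 CPM in proliferating libraries. Its log2 fold change was 0.30 with a 95% interval of -0.35 to 0.95 (adjusted p = 0.439).

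**Figure D2:**
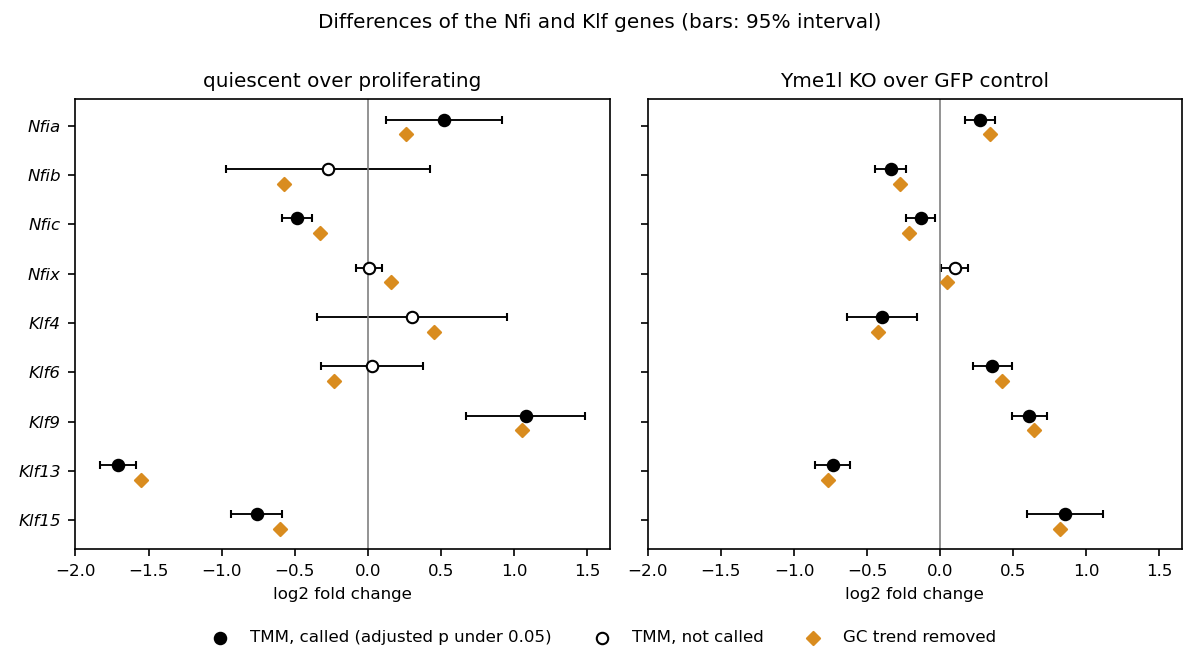
Log2 fold change (horizontal axes) of each member, quiescent over proliferating on the left and Yme1l KO over GFP control on the right; circles are the TMM-scaled test with 95% intervals, filled where called, and diamonds are the values with each library's GC trend removed. Klf9 lies right of 0 and Klf13 left of 0 in both panels, while Klf15 lies at -0.76 on the left and 0.85 on the right.

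In the Yme1l comparison 8 of the 9 members were called, 4 higher (Klf15, Klf9, Klf6 and Nfia) and 4 lower in Yme1l KO cells (Klf13, Klf4, Nfib and Nfic), with Nfix not called. Of 12625 tested genes 51.6% were called, 25.4% higher and 26.2% lower. All 9 members had groups that did not overlap, as had 61.4% of all tested genes. None of the 9 reached 2-fold, a size that 5.23% of all tested genes reached with a call.

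Klf15 had 29.7, 27.9 and 40.6 CPM in Yme1l KO libraries, against 18.7, 17.8 and 17.7 CPM in GFP control libraries. All KO values lay above the controls, and KO library 3, which stood apart over all genes, was the highest. The log2 fold change of Klf15 was 0.85 (SE 0.13, adjusted p = 0.000166) and 0.67 without KO library 3 (adjusted p = 2.61e-08). Of all tested genes 91.4% changed less.

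Klf9 had 107, 101 and 106 CPM in Yme1l KO libraries, against 70.3, 72.4 and 63.7 CPM in GFP control libraries. The gap was wider than the spread within either group, with a log2 fold change of 0.61 (SE 0.06, adjusted p = 3.53e-06). Klf13 had 50.2, 50.7 and 46.5 CPM in Yme1l KO libraries, against 82.1, 83.3 and 80.3 CPM in GFP control libraries. Klf13 was thus 1.67-fold lower in KO cells (log2 fold change -0.74, SE 0.06, adjusted p = 1.13e-06).

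Klf6 had 111, 111 and 132 CPM in Yme1l KO libraries, against 90.4, 95.9 and 89.6 CPM in GFP control libraries (log2 fold change 0.36, SE 0.07, adjusted p = 0.000548). KO library 3 was again the highest, and without it the value was 0.27. The call was lost on TPM-based values (adjusted p between 0.157 and 0.171), where the groups overlapped. Klf4 had 10.6, 10.9 and 9.39 CPM in Yme1l KO libraries, against 14.3, 13.1 and 13.4 CPM in GFP control libraries. Its log2 fold change was -0.40 (SE 0.12, adjusted p = 0.013), and the call was lost with DESeq2 (adjusted p = 0.0834) and without GFP control library 1 (adjusted p = 0.0528).

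The NFI genes moved by small amounts. Nfia had 209, 192 and 217 CPM in Yme1l KO libraries, against 170, 171 and 169 CPM in GFP control libraries (log2 fold change 0.27, SE 0.05, adjusted p = 0.000564). Nfib had 293, 291 and 258 CPM in Yme1l KO libraries, against 354, 366 and 346 CPM in GFP control libraries (log2 fold change -0.34, SE 0.06, adjusted p = 0.000153). These partners thus differed in opposite directions, and both calls were kept with each library left out.

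Nfic had 94.7, 99.7 and 96.3 CPM in Yme1l KO libraries, against 107, 105 and 107 CPM in GFP control libraries. Its log2 fold change was -0.13 (SE 0.05, adjusted p = 0.0402), and the call was lost with DESeq2 (adjusted p = 0.138), on TPM-based values, without KO library 1 and without GFP control library 1, 2 or 3 (adjusted p between 0.0748 and 0.114). Nfix had 206, 219 and 222 CPM in Yme1l KO libraries, against 201, 201 and 202 CPM in GFP control libraries. The log2 fold change of 0.10 did not pass (95% interval 0.01 to 0.19 before adjustment, adjusted p = 0.0973).

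The effects of the KO and of quiescence were set against each other in a fit of all 14 libraries, as the difference between the KO and the quiescence log2 fold change. Over 13580 genes 38.9% were called, 21.0% higher and 18.0% lower, and of the members 3 were called higher and 1 lower. Klf15 differed most, by 1.56 (SE 0.16, adjusted p = 1.33e-07), with higher levels in KO and lower levels in quiescent cells. Klf13 fell in both comparisons, and less in the KO, with a difference of 0.92 (SE 0.10, adjusted p = 3.21e-07). Klf9 was higher in both, with a difference of -0.53 (SE 0.20, adjusted p = 0.0461). That call was lost in 9 of the 14 fits that left out a library, and without quiescent library 2 the difference was -0.30 (adjusted p = 0.161). Nfic differed by 0.30 (SE 0.09, adjusted p = 0.00851), and by 0.11 with the GC trend removed (adjusted p = 0.206). The other 5 members were not called, Klf4 with the widest gap at -0.75 (SE 0.32, adjusted p = 0.0674).

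Levels between genes were compared in TPM (a share of all transcripts that takes transcript length into account). In quiescent cells the order by mean TPM was Nfix (198), Nfic (38.0), Klf15 (15.1), Nfia (10.6), Klf13 (10.04), Klf9 (4.86), Klf6 (3.71), Nfib (3.41) and Klf4 (1.23). Among neighbours in this order, the ranges of Klf15 with Nfia, Nfia with Klf13, Klf9 with Klf6 and Klf6 with Nfib overlapped. Some genes farther apart overlapped too, such as Nfia with Klf9. In proliferating cells it was Nfix (193), Nfic (54.8), Klf13 (32.9), Klf15 (24.9), Nfia (5.61), Nfib (4.31), Klf6 (4.13), Klf9 (2.23) and Klf4 (0.991). There the neighbours Nfia with Nfib and Nfib with Klf6 overlapped, and so did Nfia with Klf6. Klf13 thus stood above Klf15 in proliferating cells and below it in quiescent cells, without overlap in either group.

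In Yme1l KO cells the order was Nfix (94.9), Nfia (71.5), Nfib (62.1), Klf6 (57.3), Klf9 (42.9), Nfic (37.7), Klf15 (27.4), Klf13 (14.2) and Klf4 (6.36), with overlap of Nfib and Klf6. In GFP control cells it was Nfix (89.9), Nfib (78.8), Nfia (58.0), Klf6 (47.0), Nfic (41.5), Klf9 (28.1), Klf13 (23.1), Klf15 (15.4) and Klf4 (9.07), with overlap of Klf6 and Nfic. Nfix led in all 4 groups and Klf4 was last. Nfia and Nfib changed places between KO and control cells, as did Klf15 and Klf13.

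Summed over the 4 NFI genes, levels were 250 ± 5.91 TPM in quiescent and 258 ± 11.3 TPM in proliferating libraries (SD, n = 4 each), and 266 ± 4.70 TPM in Yme1l KO and 268 ± 2.33 TPM in GFP control libraries (SD, n = 3 each). Nfic supplied 15.2% ± 0.996 of the sum in quiescent and 21.2% ± 0.931 in proliferating libraries. The 5 Klf members summed to 34.9 ± 2.47 TPM in quiescent and 65.1 ± 3.16 TPM in proliferating libraries, and to 148 ± 13.8 TPM in Yme1l KO and 123 ± 6.32 TPM in GFP control libraries. Of this Klf sum, Klf13 supplied 29.0% in quiescent and 50.5% in proliferating libraries, and 9.66% in Yme1l KO and 18.8% in GFP control libraries. Klf9 supplied 13.8% and 3.42% in quiescent and proliferating libraries, and 29.1% and 22.9% in Yme1l KO and GFP control libraries.

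The levels of 5 members differed widely between the 2 tables even where both cultures grew in FGF and EGF. Proliferating libraries had 5.61 TPM of Nfia and GFP control libraries 58.0 TPM, and, with 0.1 TPM added to both means, the control level was 10.2-fold higher for Nfia, 17.9-fold for Nfib, 12.1-fold for Klf9, 11.1-fold for Klf6 and 8.40-fold for Klf4. For Nfix, Nfic, Klf13 and Klf15 the proliferating level was the higher, by 1.32-fold to 2.15-fold. Over all genes this log2 ratio ran with GC content, with a median of -3.76 over 426 genes of 35% to 40% GC, -2.47 at 40% to 45%, -0.74 at 45% to 50%, 0.39 at 50% to 55% and 0.81 at 55% to 60%. Nfia (43.1% GC), Nfib (42.2%) and Klf6 (42.6%) belong to the low-GC genes. Klf9 (47.5%) and Klf4 (54.7%) lay far below the genes of their own GC range, at -3.60 and -3.07. The virus, the table, the libraries and the culture changed together here and cannot be told apart, and therefore no level is tested across the tables.

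**Figure D3:**
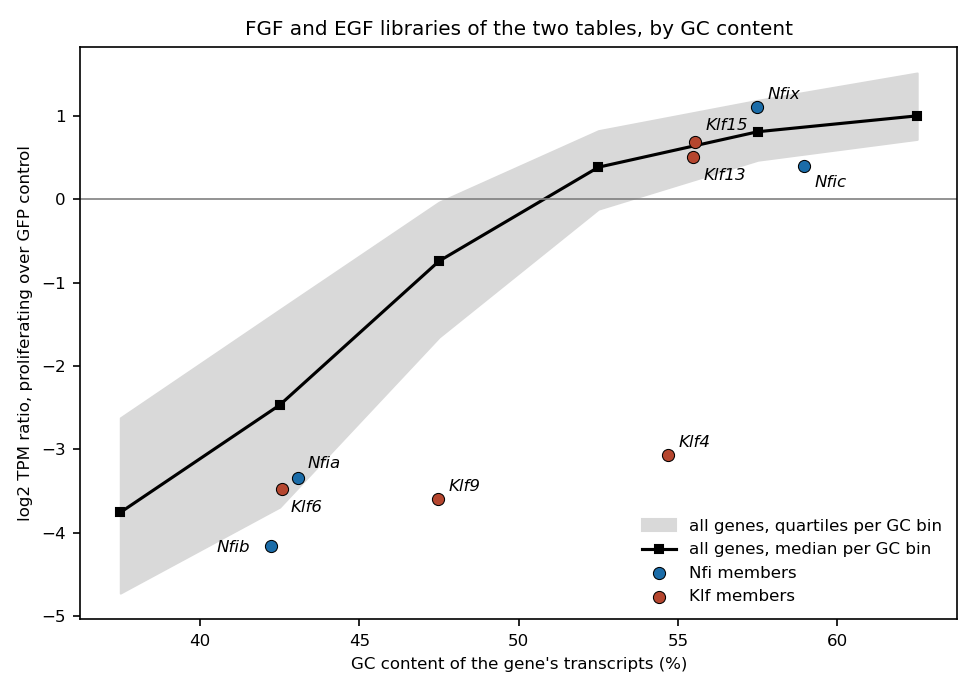
Log2 ratio of mean TPM, proliferating over GFP control (vertical axis), against GC content of a gene's transcripts (horizontal axis, percent); the line joins the medians of all genes in bins of 5% GC, the band spans their quartiles, and points are the members. Nfia and Klf6 lie within the band at low GC, Klf9 and Klf4 far under it and Nfib and Nfic just under it, and Nfix, Nfic, Klf13 and Klf15 above 0.

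The transcripts that carried each gene were read from the deposited transcript counts. Nfix-204 held 85.6% ± 0.512 of Nfix counts in quiescent and 86.4% ± 1.43 in proliferating libraries (SD, n = 4 each), and 87.5% ± 1.05 in Yme1l KO and 86.8% ± 1.04 in GFP control libraries (SD, n = 3 each). For Nfic, Nfic-203 held 66.3% to 74.5% in quiescent and 62.2% to 66.3% in proliferating libraries, ranges that overlap slightly. Klf4, Klf6, Klf9 and Klf13 were each carried by a main transcript with a mean share of at least 96.8% in every group. The splits of Nfia, Nfib and Klf15 were not stable. Nfia-202 ranged between 0% and 97.6% of Nfia counts in quiescent and between 0% and 100% in proliferating libraries, while it held 75.4% ± 5.37 in Yme1l KO and 71.1% ± 6.18 in GFP control libraries (SD, n = 3 each).

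Genes whose pattern over the 14 libraries was most like a member were found by Pearson correlation, centred within each table, among 10936 genes. Klf13 was most like Ptbp1 (r = 0.998), a splicing repressor of neural progenitors, and Umps (r = 0.998), an enzyme of pyrimidine synthesis. Klf15 was most like N4bp2l1 (r = 0.979) and Irs2 (r = 0.977), an insulin receptor substrate. Both went with Klf15 in direction, Irs2 with log2 fold changes of -0.77 in quiescence and 0.79 in the KO. Nfic was most like Git1 (r = 0.995) and Grk6 (r = 0.994), and Nfib like Dek (r = 0.976) and Tasor2 (r = 0.968). Lrrc58 was among the genes most like Klf9 (r = 0.975), and Acap2 among those most like Nfia (r = 0.968). Nfix (Meak7, r = 0.896), Klf6 (Fat4, r = 0.884) and Klf4 (Vcp, r = 0.851) had looser matches. Among the members themselves, Nfic and Klf13 ran together (r = 0.975) and Klf9 ran against Klf13 (r = -0.905). These correlations share the group differences of both comparisons and the depth of each library, and are given as a description.

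The rest of the Klf family was read next. Of 12 other Klf genes 7 passed the filter on low counts in the quiescence table, and with edgeR 0 were called higher, 2 lower and 5 not, counts that were the same at an unadjusted p under 0.05 (median log2 fold change -0.16, against -0.01 over all genes). Klf10, a gene known for its induction by TGF-beta, averaged 27.0 ± 2.05 CPM in quiescent and 133 ± 11.7 CPM in proliferating libraries (SD, n = 4 each), with a log2 fold change of -2.31 (adjusted p = 3.73e-13), a wider gap than that of Klf13. Klf16 fell by 0.90 on the log2 scale (adjusted p = 5.14e-08). Klf3 (0.12), Klf5 (-0.16), Klf7 (0.31), Klf11 (0.22) and Klf12 (-0.19) were not called. In the Yme1l comparison 8 passed the filter, and 4 were higher, 2 lower and 2 not called (median 0.22, against 0.00 over all genes). Klf3, a repressor, averaged 328 ± 14.3 CPM in Yme1l KO and 239 ± 11.2 CPM in GFP control libraries (SD, n = 3 each; log2 fold change 0.46, adjusted p = 9.07e-06), and Klf7 (0.40), Klf11 (0.55) and Klf2 (0.92) were also higher, while Klf5 (-0.35) and Klf12 (0.03) were not called. With DESeq2, 2 of the 8 were called higher and 2 lower. Klf10 and Klf16 were lower there too, at -0.26 (adjusted p = 0.00183) and -0.38 (adjusted p = 0.00299).

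The Sp genes, whose proteins bind the same boxes, were read alongside. Of 9, 4 were tested for quiescence and 1 was called, Sp2, at -0.23 (adjusted p = 0.00758), a call lost without quiescent library 2 and with DESeq2. Sp4 (0.67, SE 0.44), Sp3 (0.16, SE 0.43) and Sp1 (-0.12, SE 0.16) were not called, and their errors leave room for sizeable differences in either direction. In the Yme1l comparison 0 of 5 tested Sp genes were called with edgeR, 0 of them at an unadjusted p under 0.05 and 0 with DESeq2, while without KO library 3 Sp2 was called lower. Sp1 (0.03, SE 0.05), Sp3 (0.06, SE 0.05), Sp4 (-0.11, SE 0.13), Sp9 (0.17, SE 0.19) and Sp2 (-0.15, SE 0.09) were the values of that test.

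**Figure D4:**
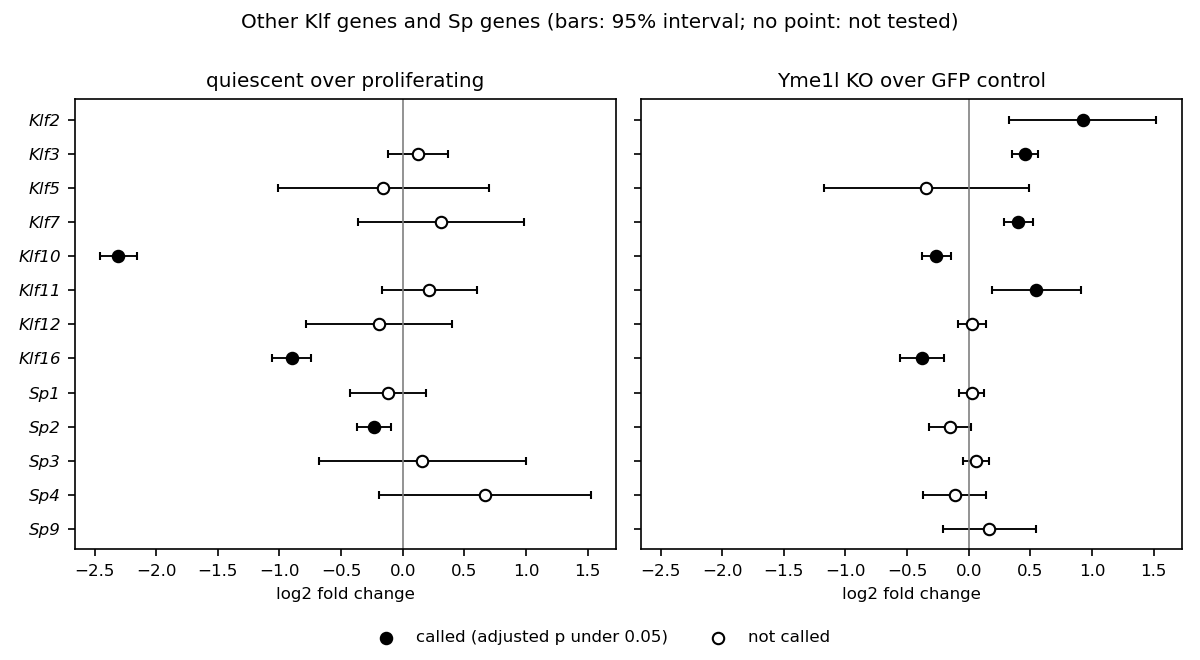
Log2 fold change (horizontal axes) of the other Klf genes and the Sp genes, quiescent over proliferating on the left and Yme1l KO over GFP control on the right; bars are 95% intervals, filled circles are called genes, and a gene with no point did not pass the filter in that table. Klf10 stands at -2.31 on the left, and Klf2, Klf3, Klf7 and Klf11 lie right of 0 on the right.

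Genes tied to NFI and KLF factors in other studies were counted from lists drawn up with earlier results of these data known. Of 17 NFI-linked genes 16 were tested for quiescence, and 11 were higher, 5 lower and 0 not called (median 0.93). Over all tested genes 29.9% were higher and 35.5% lower in quiescence (median -0.01), and 25.4% and 26.2% in the KO (median 0.00), which is the background of each list count that follows. Gfap, the astrocyte filament, averaged 307 ± 14.1 CPM in quiescent and 44.7 ± 7.86 CPM in proliferating libraries (SD, n = 4 each; log2 fold change 2.78, adjusted p = 1.96e-09). S100b (2.54) and Timp4 (1.86) rose with it, while Apcdd1 (-1.82) and Ezh2 (-0.98) were among those lower. In the Yme1l comparison 6 of 15 were higher, 5 lower and 4 not called (median 0.11). Those lower included Chrdl1 (-0.93, adjusted p = 0.000636), the NFI target Fabp7 (-0.88, adjusted p = 0.000205) and Ezh2 (-0.88, adjusted p = 0.00104), a histone methyltransferase gene that NFIB represses in the mouse cortex. Mmd2 (-1.97, SE 0.50) and Apcdd1 (-1.40, SE 0.25) were also lower, both at a mean under 5 CPM over the KO and control libraries. Slc1a2 (0.87), Timp4 (0.75) and S100b (0.60) were among those higher.

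Of the astrocyte markers, 6 of 9 tested were higher in quiescence, 2 lower and 1 not called. Sparcl1 (5.60), Aqp4 (4.78, at a mean of 3.32 TPM in quiescent libraries), Gfap and S100b were the widest apart. Slc1a2 (1.66) and Aldoc (0.83) were also higher. Fgfr3 (-0.95) and Aldh1l1 (-0.64) were lower, and Gja1 (-0.11) was not called. In the KO 5 of 8 were higher, namely Slc1a2 (0.87), S100b (0.60), Sparcl1 (0.56), Aldh1l1 (0.28) and Gja1 (0.14), 2 were lower, Aldoc (-0.90) and Fgfr3 (-0.19), and Gfap (0.31) was not called. Their summed level ran between 4411 and 4632 TPM in quiescent and 3038 and 3175 TPM in proliferating libraries, and between 1729 and 1884 TPM in Yme1l KO and 1368 and 1410 TPM in GFP control libraries. No listed astrocyte marker was at 0 in every library of a group. In these bulk samples a change in the share of cells of a type and a change in RNA per cell cannot be told apart. Markers of neural stem and progenitor identity went both ways, with 4 of 11 higher and 5 lower in quiescence, among them Egfr (-1.77), Nes (-1.15) and Slc1a3 (0.86), and 2 of 11 higher and 5 lower in the KO, among them Fabp7 (-0.88) and Vim (-0.37).

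Among the oligodendrocyte markers, Olig2 (-1.18) and Olig1 (-0.27) were lower in quiescent cells, Cspg4 (0.53) higher, and Pdgfra (0.17) and Cnp (-0.08) not called. In the KO Olig1 (0.44), Cspg4 (0.32) and Olig2 (0.20) were higher, and Pdgfra (0.13) and Cnp (0.16) not called. Their summed level ran between 2432 and 2596 TPM in quiescent and 3127 and 3405 TPM in proliferating libraries, and between 2430 and 2772 TPM in Yme1l KO and 1941 and 2064 TPM in GFP control libraries, with Mog at 0 throughout. Both ependymal markers tested, Rarres2 (-1.46) and Foxj1 (-0.33), were lower in quiescent cells, where the list summed to between 47.6 and 57.4 TPM, against 72.8 to 83.2 TPM in proliferating libraries. Foxj1 (0.28) was not called in the KO, where the list summed to between 21.8 and 26.9 TPM, against 15.2 to 19.4 TPM in GFP control libraries. Tmem212 and Pifo were at 0 in all libraries.

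Of the neuroblast and neuron markers, Dlx2 was higher (2.44) and Tubb3 lower (-0.93) in quiescent cells, with Dlx1 (0.34) and Map2 (0.32) not called. Of the 4 tested in the KO, 0 were called with edgeR, 0 had an unadjusted p under 0.05 and 0 were called with DESeq2, with Dcx at 0.00, Tubb3 at 0.11, Dlx1 at -0.31 and Map2 at 0.01. The neuronal list summed to between 30.5 and 54.5 TPM in quiescent and 31.4 and 43.7 TPM in proliferating libraries, and to between 537 and 563 TPM in Yme1l KO and 522 and 575 TPM in GFP control libraries, with Stmn2 and Dlx5 at 0 in all. Nearly all of the KO and control sums was Map2. It averaged 25.4, 19.0, 527 and 525 TPM in quiescent, proliferating, Yme1l KO and GFP control libraries. Map2 (42.9% GC) is among the low-GC genes, whose levels differed between the 2 tables, so these sums do not compare neuronal content across them.

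Microglial markers summed to between 4.84 and 7.84 TPM in quiescent and 2.46 and 4.35 TPM in proliferating libraries, and to between 6.39 and 7.95 TPM in Yme1l KO and 3.46 and 6.15 TPM in GFP control libraries. Tmem119 was higher in quiescent cells (4.06 CPM, against 0.105 CPM in proliferating cells; log2 fold change 5.01, adjusted p = 4.99e-06), and Cd68 (-0.67) was not called. In the KO P2ry12 (0.52) and Cd68 (0.53) were not called. Cx3cr1, C1qa, C1qb and Ptprc were at 0 in all 14 libraries. Vessel and fibroblast markers summed to at most 13.0 TPM in any library, with Cldn5, Pdgfrb and Dcn at 0 throughout. Of these markers Kdr was higher (2.29, adjusted p = 1.71e-07) and Acta2 lower (-1.46, adjusted p = 6.66e-05) in quiescent cells, Flt1 (-0.20) and Col1a1 (0.45) were not called, and Flt1 (0.54) was not called in the KO. The part of any of these cell types in the member differences was not tested.

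Of 20 KLF-linked genes 18 were tested in each comparison. In quiescence 9 were higher, 5 lower and 4 not called (median 0.11), and the widest gaps were those of the cyclins Ccnd1 (-2.87, adjusted p = 3.53e-17), Ccne1 (-2.46, adjusted p = 3.64e-13) and Ccnb1 (-2.35, adjusted p = 4.76e-13). In the KO 6 were higher, 5 lower and 7 not called (median 0.07). There Txnip, which encodes a brake on glucose uptake, averaged 102 ± 24.5 CPM in Yme1l KO and 28.3 ± 1.99 CPM in GFP control libraries (SD, n = 3 each; log2 fold change 1.85, adjusted p = 0.000318). The CDK inhibitor gene Cdkn1a rose by 1.295 on the log2 scale (adjusted p = 2.82e-05), and Slc1a5, a glutamine transporter gene, fell by 1.31 (adjusted p = 0.000622).

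Since Klf9 and Klf15 respond to glucocorticoids and to the clock elsewhere, both gene groups were read. Of 16 glucocorticoid-responsive genes 14 were tested for quiescence, with 11 higher, 1 lower and 2 not called (median 0.97). Pdk4 was higher (2.11, adjusted p = 6.98e-07), as was the receptor gene Nr3c1 (1.93, adjusted p = 0.00196), while Fkbp5, the classic chaperone target, was lower (-2.07, adjusted p = 2.75e-11). In the KO 7 were higher, 2 lower and 5 not called (median 0.35), among the higher ones Sult1a1 (1.501), Zbtb16 (0.72) and Tsc22d3 (0.59). The 2 lower ones were Fkbp5 (-0.46, adjusted p = 4.11e-05) and Sgk1 (-0.27, adjusted p = 0.0316). Of 17 circadian genes 8 were higher, 2 lower and 7 not called in quiescence (median 0.12), with Bhlhe41 (62.5 CPM in quiescent and 16.0 CPM in proliferating libraries) and Clock (log2 fold change 1.33) higher and Bhlhe40 (-0.96) lower. In the KO 9 of 16 were higher, 2 lower and 5 not called (median 0.54), among them Dbp (1.25, adjusted p = 0.000168), Bhlhe41 (1.13, adjusted p = 3.57e-06) and Hlf (0.90, adjusted p = 1.16e-05). The counts of these 4 lists changed by at most 2 genes in either direction without quiescent library 2, without KO library 3 or with the GC trend removed.

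**Figure D5:**
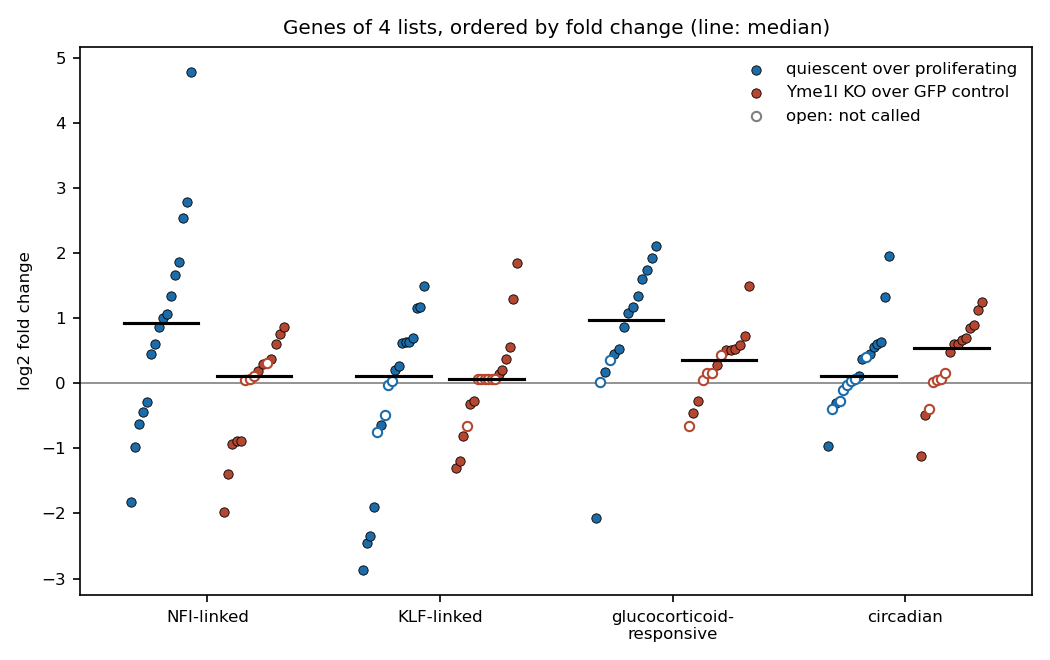
Log2 fold change (vertical axis) of the tested genes of 4 lists (horizontal axis), quiescent over proliferating in blue and Yme1l KO over GFP control in red, each ordered by value; filled points are called and lines are medians. The medians stand at 0.93 and 0.11 for NFI-linked, 0.11 and 0.07 for KLF-linked, 0.97 and 0.35 for glucocorticoid-responsive and 0.12 and 0.54 for circadian genes, quiescence first in each pair.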

How the data were processed

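RNA of 14 libraries was sequenced from poly-A selected, stranded libraries, per the labels' protocols. The deposited tables hold salmon's estimated counts and TPM per gene and transcript in 2 separate tables, quiescent with proliferating and Yme1l KO with GFP control. The build was GRCm39, per the submitters' processing notes. The authors' deposited tables also give log2 fold changes and adjusted p-values, made with DESeq2 1.30.1 in R 4.0.3 per the submitters' processing notes.

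Estimated counts were rounded, filtered with filterByExpr, scaled by TMM and tested with edgeR 4.0.16 (quasi-likelihood, robust) in R 4.3.3, each table on its own, with Benjamini-Hochberg adjustment over all tested genes and a call at an adjusted p under 0.05. Every adjusted p in the text is from that test unless another tool is named. Intervals are approximate 95% intervals of the log2 fold change, from its SE and a normal distribution. With so few libraries they are somewhat too narrow. KO and quiescence effects were compared in a joint fit of all 14 libraries. DESeq2 1.42.0, limma 3.58.1 (log2 of TPM plus 1 or 0.1) and other scalings and filters were alternatives. Removal of each library's trend with GC content (lowess, span 0.3, GC content from GENCODE M21 transcripts, available for 99.6% of counted genes), with or without a library that stood apart, the comparison of pairing on the same libraries and the list counts under other settings were chosen after seeing the data. The 4 rows that name no gene held 0 counts. The tests were also run on simulated counts with few changed genes and no GC trend. The outcome is not reported here and cannot vouch for the calls in these data. Precision is limited by 6475092 to 10320727 counts per library, and by 7 counts for the lowest member value.

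The members and gene lists were chosen with earlier results of these data known. Named were all 9 members, Yme1l1, every tested gene of a list with 8 or fewer tested, otherwise the 3 called genes of a list with the largest change and at least 5 CPM, and the 2 genes most like each member. Some of these results are not reported here. Sox2, Prom1, the marker genes at 0 and further genes of the astrocyte, NFI-linked and glucocorticoid-responsive lists were named after their values were seen.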

Additional observations from a re-analysis of the deposited data

Results flagged for a closer look

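Nfia in quiescent library 2 had 39.2 CPM, far from the 22.0 to 23.3 CPM of the other quiescent libraries. The gap to its nearest neighbour was 0.929 of the range of the group, above Dixon's 95% critical value for 4 samples. Chance marks about 1 in 20 groups in this way. The same library had a higher share of counts in low-GC genes (6.63%), and the part of that share in the Nfia value was not tested.

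For 4 members the KO effect and the quiescence effect differed in the joint test of 14 libraries. The difference, KO effect minus quiescence effect on the log2 scale, was 1.56 for Klf15, 0.92 for Klf13, 0.30 for Nfic and -0.53 for Klf9. Klf15 alone of these had effects of opposite sign. In Klf15 all 3 KO libraries lay above the GFP control libraries and all 4 quiescent libraries lay below the proliferating ones. The 2 effects come from separate tables, so the difference between effects and between tables cannot be told apart.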

How the results depend on the processing

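Over the alternatives, 152 member values of quiescent against proliferating cells kept direction and side of the threshold, 9 lost the call, 5 gained it, 1 reversed and 13, all uncalled values of Klf6 or Nfix, changed sign. For Yme1l KO against GFP control 138 kept both and 15 lost the call. For the difference between the effects 145 kept both, 13 lost the call, 5 gained it and 8 uncalled values of Nfib or Nfix changed sign. Nfix reversed to -0.13 with library size alone (adjusted p = 0.00648). In quiescence the number of members higher was 2, and 1 with library size alone, with limma on log2(TPM + 1) and on log2(TPM + 0.1), with the replicate block and on the shared numbers without the block, with 1 to 3 when a library was left out. With the GC trend removed 3 members were higher and 4 lower, 7 of 9 called in place of 5. In the Yme1l comparison 4 members were lower, 2 with DESeq2 and 2 to 4 with a library left out. For the difference between effects 1 member was lower, 2 with RLE size factors and with the GC trend removed, 0 with library size alone, and 0 to 2 with a library left out. The cause was not tested.

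Scaling moved the split of calls over all genes. Quiescent cells had 3664 higher and 4346 lower genes, and 2823 and 5219 with library size alone (median log2 fold change -0.15). In the joint fit 2848 were higher and 2441 lower, against 2229 and 3094 with RLE size factors, 4173 and 1732 with library size alone (median 0.16), and 2054 and 3012 with DESeq2.

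Replicate numbers are not stated to pair cultures, so the numbers were not taken as pairs. Libraries sharing a number did not deviate together, with correlations of -0.18, -0.33 and -0.01 for quiescent with proliferating and 0.00, -0.06 and -0.01 for KO with control libraries. So few correlations cannot show that pairing was absent. With the replicate block 6530 genes were called in quiescence, against 7206 on the same libraries without it and 8010 on all, and 6252 against 6509 in the KO. Nfia (0.45, adjusted p = 0.193) in quiescence and Nfic in the KO (adjusted p = 0.0723) were not called with the block. Klf4, with 7 to 21 counts in quiescent and proliferating libraries, was limited by depth.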

Other observations

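The authors' deposited table gives fold changes of proliferating over quiescent cells, the opposite direction to that used above. In the authors' deposited table Klf13 stands at 1.66 (adjusted p = 8.16e-76), Klf15 at 0.66 (adjusted p = 2.45e-07), Nfic at 0.48 (adjusted p = 9.85e-09), Klf9 at -1.09 (adjusted p = 2.24e-05) and Nfia at -0.75 (adjusted p = 0.053). For Yme1l KO over GFP control, the authors' deposited table gives Klf15 0.75 (adjusted p = 4.03e-05), Klf9 0.58 (adjusted p = 3.61e-09) and Klf13 -0.68 (adjusted p = 2.08e-10), with adjusted p of 0.0596 for Klf4, 0.0864 for Klf6 and 0.19 for Nfic.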
